A study of Mus musculus with 8 samples.

Results

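The ErbB family of growth factor receptors and its ligands were followed in mouse liver, with neuregulin 4 (Nrg4) as the gene of interest. The 10 genes sought were 6 ligands (Nrg4, Tgfa, Hbegf, Btc, Egf and Areg), 3 receptors (Egfr, Erbb3 and Erbb2) and the feedback inhibitor Errfi1. They were found by gene symbol, and 9 of the 10 were among the 24674 lines of the table that carried a symbol. No line had the symbol Areg, which was not analysed here. The family was chosen from the same comparison of these libraries in which Nrg4 stood high, so the differences between groups in its members are given as descriptions. Calls of members in the fit over all genes are counted once beside the share of all genes called, and support nothing here.

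The study compared liver RNA from 2 groups of female mice, with 4 libraries in each. WT animals were wild type and had only wild-type ancestors. F2_outcross animals carried the wild-type genotype as well, but each had a Khdc3-null grandmother on the maternal side. Khdc3 encodes a protein of oocytes and early embryos, and the question was whether its loss 2 generations back is accompanied by differences in liver RNA. The labels give no strain, age, feeding state, litter or number of grandmothers, so p-values measure only the spread between these libraries, and litter and group cannot be told apart.

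ErbB receptors are tyrosine kinases that pair when a ligand binds. Egfr binds Egf, Tgfa, Areg, Btc and Hbegf. Erbb3 binds some neuregulins but has little kinase activity of its own. Erbb2 has no known ligand and serves as a partner, and Erbb4 is the best known receptor of Nrg4. The ligands are made as membrane proteins and most are released by proteases. In mice, Nrg4 is best known as a factor secreted by brown fat that acts on hepatocytes, while Errfi1 (also called Mig6) is induced by growth factors and binds the Egfr kinase domain to shut it off.

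The promoters of the genes on which the results turn are printed for reference: Nrg4, which was higher in F2_outcross, Errfi1, which was lower, and Egfr, the receptor with the highest mean level per kb. The sequences are from RefSeq (GRCm38.p6) and run 5′ to 3′ on the gene's strand from 250 bases before to 50 bases after an annotated start. RefSeq promoters were found for 8 of the 10 genes, 10 promoters in all, and not for Erbb3 or Hbegf. The Nrg4 start used lies inside the gene's span in the GENCODE annotation (chr9:55220222-55326844, minus strand, 13 transcripts). No promoter at the 5′ end of that span was searched. Capitals mark every match, on either strand, to the motifs searched.
Nrg4, chr9:55283576-55283875, minus strand: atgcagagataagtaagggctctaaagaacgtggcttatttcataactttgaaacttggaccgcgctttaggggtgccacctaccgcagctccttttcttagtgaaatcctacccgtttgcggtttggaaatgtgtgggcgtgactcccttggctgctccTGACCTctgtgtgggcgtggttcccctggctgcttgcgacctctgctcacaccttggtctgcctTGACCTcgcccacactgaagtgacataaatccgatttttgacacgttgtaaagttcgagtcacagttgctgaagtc
Errfi1, first promoter, chr4:150853546-150853845, plus strand: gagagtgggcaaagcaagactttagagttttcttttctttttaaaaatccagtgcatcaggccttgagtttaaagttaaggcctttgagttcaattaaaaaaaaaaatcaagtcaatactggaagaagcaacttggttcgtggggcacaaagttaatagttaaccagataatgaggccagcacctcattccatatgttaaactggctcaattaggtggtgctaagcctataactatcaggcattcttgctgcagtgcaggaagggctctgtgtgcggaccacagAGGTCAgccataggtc
Errfi1, second promoter, chr4:150854820-150855119, plus strand: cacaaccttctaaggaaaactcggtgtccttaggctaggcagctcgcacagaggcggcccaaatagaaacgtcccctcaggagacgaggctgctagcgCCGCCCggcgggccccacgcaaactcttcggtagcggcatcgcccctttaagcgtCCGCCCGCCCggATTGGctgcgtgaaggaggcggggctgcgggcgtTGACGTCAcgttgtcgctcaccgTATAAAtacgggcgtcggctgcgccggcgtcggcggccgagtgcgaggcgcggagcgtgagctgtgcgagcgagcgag
Egfr, chr11:16751953-16752252, plus strand: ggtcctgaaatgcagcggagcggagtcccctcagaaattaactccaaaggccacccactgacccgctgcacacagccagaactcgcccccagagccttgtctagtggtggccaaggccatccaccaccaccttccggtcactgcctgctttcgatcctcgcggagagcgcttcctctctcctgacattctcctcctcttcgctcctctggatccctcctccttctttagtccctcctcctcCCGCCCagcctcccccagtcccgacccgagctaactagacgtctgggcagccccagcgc

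The motifs searched were the TATA box (TATAAA), the CCAAT box (CCAAT), the GC box (GGGCGG), the E-box (CACGTG), a STAT element (TTCNNNGAA), an AP-1 element (TGANTCA), the cyclic AMP response element (TGACGTCA), the glucocorticoid receptor core motif (AGAACA) and the nuclear receptor core motif (AGGTCA). Each was sought on both strands, and overlapping matches were counted. Of 32851 mouse promoters of the same length, 13.6% held the TATA box, 37.4% the CCAAT box, 35.7% the GC box, 7.15% the E-box and 8.30% the STAT element. The AP-1 element was held by 7.81%, the cyclic AMP response element by 1.79%, the glucocorticoid receptor core motif by 19.0% and the nuclear receptor core motif by 16.3%. The Nrg4 promoter held the nuclear receptor core motif at 2 positions, starting at −90 and −26 from the start site, both on the opposite strand, and none of the other motifs. The first Errfi1 promoter held the same core motif once, at 35. The second Errfi1 promoter held a cyclic AMP response element at −51, a TATA box at −28, a CCAAT box at −85 and GC boxes at −152, −97 and −93, of which the last pair overlap. These 2 Errfi1 promoters also differed in base composition, with 42% G and C and 2 CpG in the first and 66.7% and 41 CpG in the second, against medians of 52.7% and 7 CpG over all promoters. The Nrg4 promoter, with 51% and 13 CpG, lay near the median in G and C content. The Egfr promoter held 1 GC box, at −9, and the Tgfa promoter held GC boxes at −126 and −15. Areg had a cyclic AMP response element and a TATA box, Erbb2 a CCAAT box, and Btc and Egf no match. These are matches of letters and not measured binding sites.

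Depth was similar across libraries, with 27855142 to 35602558 reads on lines with a symbol. Levels are given in normalized reads, which are reads divided by a size factor for each library, and 1 read was worth 0.779 to 1.04 of them. The labels give the tissue as liver and the cell type as hepatocyte. All 8 hepatocyte markers were present and dominated (Alb, the gene of serum albumin, had 2727879 ± 273889 normalized reads in F2_outcross, SD, n = 4), but markers of Kupffer, endothelial and stellate cells were also present, at summed levels of 12479 to 32984, 9312 to 11147 and 8168 to 12825 normalized reads. The libraries are therefore described as liver. Fewer cells of a type and less RNA per cell cannot be told apart in such samples. F2_outcross replicate 3 stood apart in carrying 197.7 normalized reads of 7 adipocyte markers, against at most 28.97 in any other library. Pancreas markers were uneven too, from 48.7 to 1344 summed normalized reads, highest in WT replicate 1 and next in F2_outcross replicate 3 (959).

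Nrg4 (chr9:55220222-55326844, minus strand) was the ligand whose groups lay farthest apart. The WT libraries held 221.2, 161.7, 273.6 and 308.1 normalized reads in replicates 1 to 4. The F2_outcross libraries held 767.3, 1083, 774.3 and 750.5. Every F2_outcross library stood above every WT library, with a wide gap between the highest WT and the lowest F2_outcross value. The means were 241.1 ± 63.9 and 843.7 ± 159.6 normalized reads (SD, n = 4 each), a 3.50-fold higher level. On the log2(normalized reads + 1) scale the difference was 1.83 ± 0.19 (moderated SE), and it ranged from 1.65 to 1.96 as each library was left out in turn. The difference ranked 20th from the highest among 14390 genes tested. These values rest on 160 to 395 reads per WT library and 770 to 1129 per F2_outcross library.

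**Figure D1:**
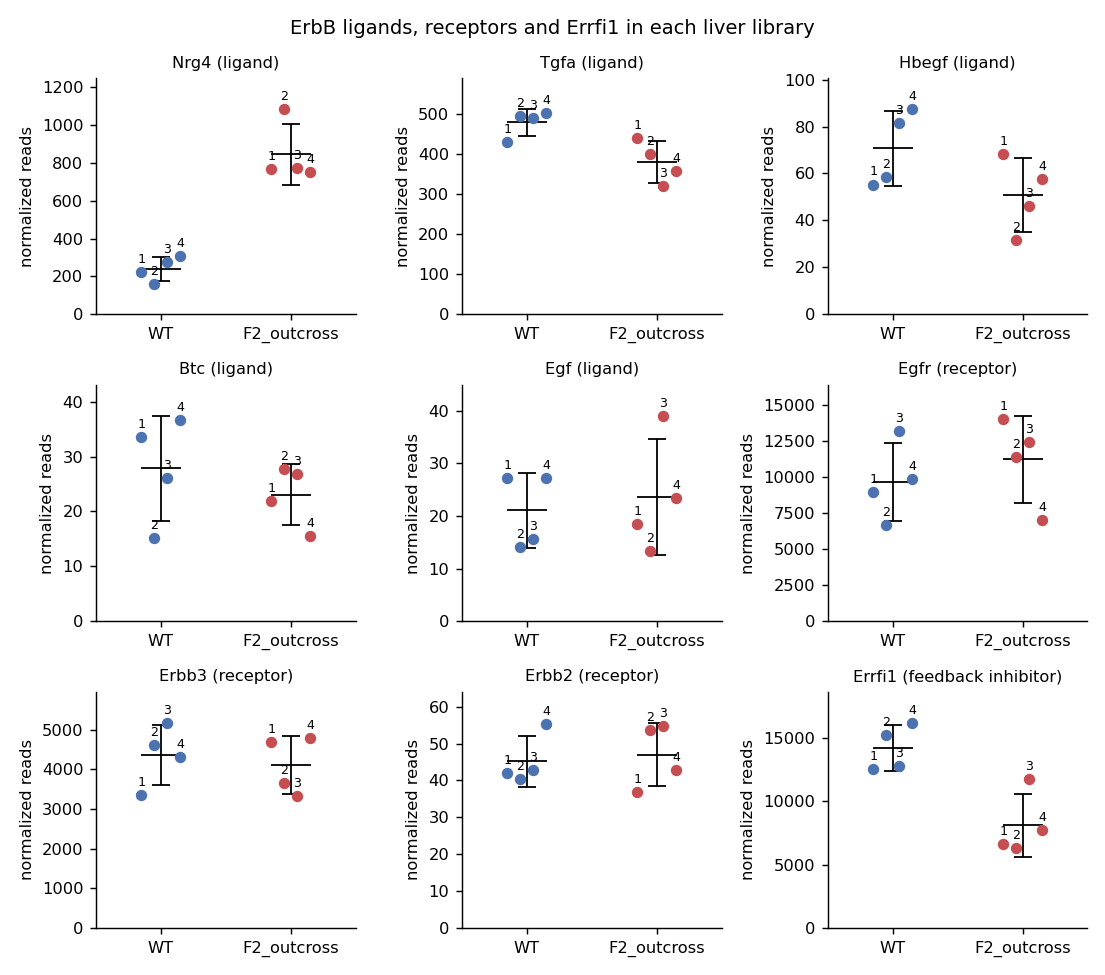
Normalized reads of the 9 measured genes in each library, one panel per gene, with WT in blue and F2_outcross in red; points are libraries numbered by replicate, and bars are the mean ± SD (n = 4). The groups are separated for Nrg4 and Errfi1 and overlap for the other 7 genes.

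The 3′ part of Nrg4 shares 368 exonic bases with Fbxo22, a gene for an F-box protein on the opposite strand. The library kit keeps strand, but the strand setting of the counting is not given in the sources used here. The mean of Fbxo22 was 1534 ± 43.8 normalized reads in WT and 1493 ± 48.4 in F2_outcross, with a log2 fold change of −0.04 (limma adjusted p = 0.832). The part of Fbxo22 reads in the Nrg4 values was not tested. Over all 14390 genes tested, limma called 2.66% at an adjusted p under 0.05, and 3033 genes had an unadjusted p under 0.05. Of the 10 tested genes within 500 kb of Nrg4, limma called 0 at an adjusted p under 0.05. Among these neighbours 0 had an unadjusted p under 0.05, and limma voom on the reads called 0. Their log2 fold changes ran from −0.22 for Psma4, a proteasome subunit gene, to 0.20 for Ube2q2, a ubiquitin-conjugating enzyme gene. Tmem266, the nearest gene upstream, had 81.1 ± 13.4 and 89.8 ± 19.5 normalized reads.

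Because Nrg4 is known from brown fat in mice, its level is set beside the adipocyte markers. The 7 markers (Adipoq, Plin1, Retn, Cfd, Ucp1, Cidea and Lep) summed to 1.56, 9.09, 6.26 and 0.78 normalized reads in WT replicates 1 to 4. In F2_outcross replicates 1 to 4 they summed to 29.0, 2.88, 197.7 and 0.97. Nrg4 was highest in F2_outcross replicate 2 and was 750.5 in replicate 4, where the marker sums were 2.88 and 0.97. Ucp1, the uncoupling protein of brown fat, was at 0.97 normalized reads or fewer in every library, and Cidea, also abundant in brown fat, was listed at 0 in all 8. Without F2_outcross replicate 3 the log2 fold change of Nrg4 was 1.86. The high adipocyte signal of that library was made of Cfd (92.8), Adipoq (39.9), Plin1 (26.0), Retn (21.7) and Lep (16.5). The part of adipocyte RNA in the Nrg4 values was not tested.

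**Figure D2:**
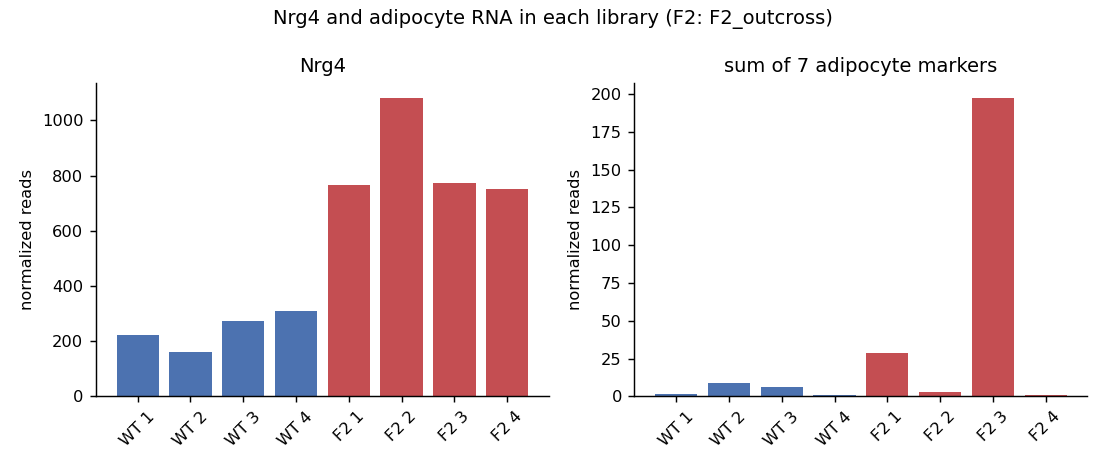
Normalized reads of Nrg4 (left) and the sum of 7 adipocyte markers (right), one bar per library, WT in blue and F2_outcross in red. The adipocyte marker sum is highest in F2_outcross replicate 3 (197.7) and next in F2_outcross replicate 1 (28.97). Nrg4 is 750.5 or more in all 4 F2_outcross libraries.

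Tgfa (chr6:86195223-86275719, plus strand), the transforming growth factor alpha ligand of Egfr, had values on the other side. It held 429.8, 494.1, 488.6 and 501.6 normalized reads in WT replicates 1 to 4 and 439.8, 399.9, 319.1 and 357.7 in F2_outcross replicates 1 to 4. Only WT replicate 1 and F2_outcross replicate 1 crossed, so the groups overlapped. The means were 478.6 ± 32.9 and 379.1 ± 52.2 normalized reads, with a log2 fold change of −0.34 ± 0.12 and a range of −0.42 to −0.26 on leaving out each library.

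The remaining ligands were low. Hbegf, a heparin-binding Egfr ligand, ranged from 55.3 to 87.4 normalized reads in WT and from 31.6 to 68.5 in F2_outcross. Its means were 70.7 ± 16.1 and 50.9 ± 15.8, with a log2 fold change of −0.49 ± 0.26. That value was −0.65 without F2_outcross replicate 1 and −0.29 without F2_outcross replicate 2. Btc (betacellulin; chr5:91357261-91402994, minus strand) ranged from 15.2 to 36.7 in WT and from 15.6 to 27.8 in F2_outcross. Its log2 fold change was −0.22 ± 0.32, from 15 to 47 reads per library, and it moved to −0.48 without WT replicate 2 and to −0.06 without F2_outcross replicate 4. In each of these genes the groups overlapped and the difference was less than 2 standard errors. Egf, the founding ligand of the family (chr3:129677565-129755316, minus strand), had 27.3, 14.2, 15.7 and 27.3 normalized reads in WT and 18.4, 13.4, 39.0 and 23.4 in F2_outcross. Its highest value was in F2_outcross replicate 3, the library with high adipocyte and pancreas markers, and the part of that tissue in the Egf value was not tested. The log2 fold change of Egf was 0.11 ± 0.36 with that library and −0.16 without it, and it was also below 0 without WT replicate 2 (−0.05) or WT replicate 3 (−0.01), so its direction rested on single libraries.

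The receptors did not separate the groups. Egfr (chr11:16752203-16918158, plus strand) held 8975, 6645, 13210 and 9840 normalized reads in WT replicates 1 to 4 and 14043, 11406, 12432 and 7012 in F2_outcross replicates 1 to 4. Each group spanned most of the other's range, and the lowest values were WT replicate 2 and F2_outcross replicate 4. The means were 9667 ± 2720 and 11223 ± 3010, with a log2 fold change of 0.21 ± 0.23. That value was 0.05 without WT replicate 2, 0.09 without F2_outcross replicate 1, 0.38 without WT replicate 3 and 0.42 without F2_outcross replicate 4. Erbb3 (chr10:128567523-128589652, minus strand) is the kinase-poor partner that binds some neuregulins. It held 3355, 4623, 5176 and 4314 normalized reads in WT and 4687, 3667, 3335 and 4786 in F2_outcross. Its means were 4367 ± 763 and 4119 ± 727, and its log2 fold change was −0.08 ± 0.15, with a range of −0.20 to 0.01 on leaving out each library. Neither receptor differed between groups by more than the spread of libraries within a group.

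Erbb2 (chr11:98412470-98437716, plus strand), the partner without a ligand, was low in both groups. It held 42.1, 40.4, 42.8 and 55.4 normalized reads in WT and 36.9, 53.7, 54.6 and 42.9 in F2_outcross, with a log2 fold change of 0.05 ± 0.21 and a range of −0.03 to 0.16 on leaving out each library. It shares 9 exonic bases with Mien1 on the opposite strand. Egf shares 607 exonic bases with Gm42697 and 500 with 6330410L21Rik, both on the opposite strand. Tgfa shares 118 with Gm43917 and Nrg4 shares 177 with the pseudogene Gm15625, also on opposite strands. No line had the symbol of these last genes, and their part in the Egf, Tgfa and Nrg4 values was not tested. Erbb4, the best known receptor of Nrg4, was close to undetectable: 1 read in WT replicate 1, 1 read in WT replicate 2 and 0 reads in the other 6 libraries. A count of 0 reads allows up to 3 reads, which is 2.34 to 3.13 normalized reads in these libraries, counting error only. Erbb4 was therefore not detectable at this depth in 6 of 8 libraries, while Erbb3 was present in all 8. Binding of Nrg4 to either receptor was not tested.

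Errfi1 (chr4:150853919-150868892, plus strand) had the highest mean level per kb of the members in both groups, and was the only one lower in every F2_outcross library than in every WT library. The WT libraries held 12523, 15263, 12780 and 16194 normalized reads, and the F2_outcross libraries held 6625, 6302, 11721 and 7752. F2_outcross replicate 3 lay close below the lowest WT library, and the other 3 F2_outcross libraries lay far below it. The means were 14190 ± 1820 and 8100 ± 2493 normalized reads, 0.571-fold, with a log2 fold change of −0.85 ± 0.18. On leaving out each library in turn the lowest value was −1.04, when F2_outcross replicate 3 was dropped, and the highest −0.74, when replicate 2 of that group was dropped.

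Of the 9 measured members, all passed the filter on low values, and the limma fit called 1 higher (Nrg4) and 1 lower (Errfi1) in F2_outcross at an adjusted p under 0.05. Over all 14390 genes tested, 2.66% were called, 1.60% higher and 1.06% lower. The 4 values of one group lay entirely above those of the other for 2 members, against 12.0% of all genes tested. Since the family was chosen in view of this comparison, nothing is read from these calls or counts. The median log2 fold change was −0.08 over the members and −0.01 over all genes, with 4 members above 0 and 5 below. The call of Errfi1 was lost without WT replicate 1, 3 or 4 or F2_outcross replicate 1, 2 or 4.

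**Figure D3:**
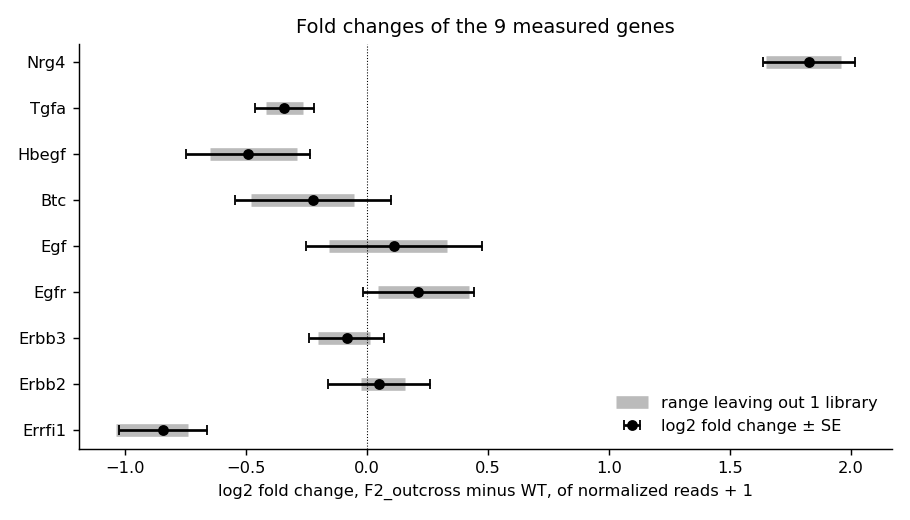
Log2 fold change (F2_outcross minus WT, of normalized reads + 1) of the 9 measured genes: points with black bars are the value ± SE, and grey bars the range on leaving out 1 library at a time. Nrg4 (1.83) and Errfi1 (−0.85) lie far from 0 with every library left out, and the grey bars of Egf, Erbb2 and Erbb3 cross 0.

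Levels were compared between genes as normalized reads per kb of merged exons. In WT the order was Errfi1 (3961 ± 508), Egfr (853.6 ± 240.2), Erbb3 (725.9 ± 126.8), Tgfa (73.7 ± 5.07), Nrg4 (39.7 ± 10.5), Hbegf (14.6 ± 3.33), Erbb2 (8.67 ± 1.32), Btc (6.16 ± 2.11) and Egf (1.87 ± 0.64). Egfr and Erbb3 overlapped between libraries, as did Erbb2 and Btc, and the other neighbours in this order did not. In F2_outcross Nrg4 (138.9 ± 26.3) stood above Tgfa (58.4 ± 8.05) without overlap, and no other place changed. Egfr and Erbb3, Hbegf and Erbb2, and Btc and Egf overlapped there. Over the 8 libraries, the mean level per kb stood at percentile 96.8 of 14097 genes for Errfi1, 90.5 for Egfr, 88.3 for Erbb3, 50.9 for Nrg4, 43.8 for Tgfa and 0.979 for Egf. By merged exons and over both groups, Egfr, Erbb3 and the inhibitor were thus high in liver RNA. The ligands were near or below the middle of all genes by that measure. With the longest transcript as length, Nrg4 had 115.1 ± 30.5 per kb in WT and 402.7 ± 76.2 in F2_outcross, and no percentile was taken.

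**Figure D4:**
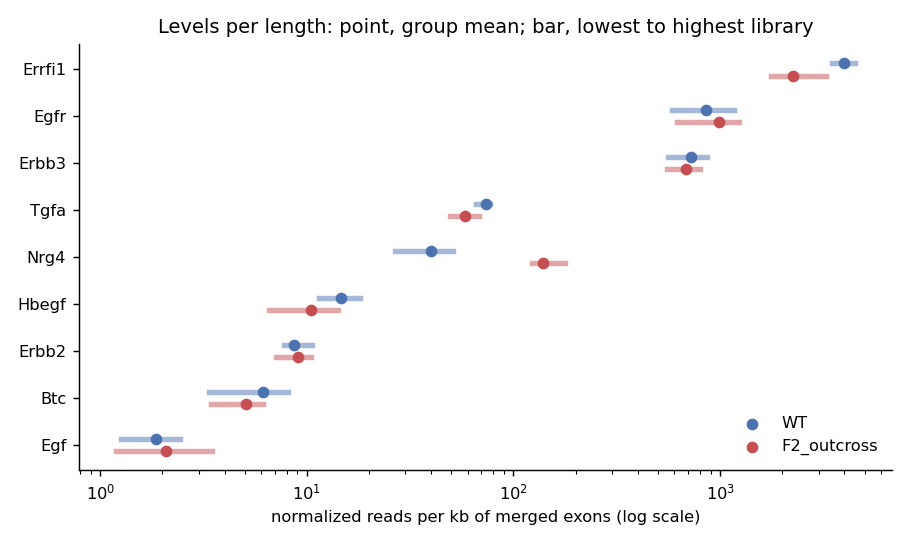
Normalized reads per kb of merged exons (log scale) of each gene in WT (blue) and F2_outcross (red): points are group means, bars run from the lowest to the highest library (n = 4). Errfi1, Egfr and Erbb3 are at 554.3 or more in every library. With this length Nrg4 changes place with Tgfa between groups, and with the longest transcript it does not.

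Nrg4 made up 29.4%, 22.3%, 31.2% and 32.4% of the summed level per kb of the 5 measured ligands in WT replicates 1 to 4. In F2_outcross it made up 58.8%, 70.2%, 65.2% and 63.0%. Tgfa led in WT (54.7 ± 6.27%) and Nrg4 led in F2_outcross (64.3 ± 4.75%). The ratio of Nrg4 to Tgfa per kb was 0.538 ± 0.133 in WT and 2.40 ± 0.44 in F2_outcross, and that of the group means in F2_outcross was 2.38. This order depends on the length used, since Nrg4 has 6075 bases of merged exons and a longest transcript of 2095. With the longest transcript, Nrg4 (115.1 ± 30.5) and Tgfa (105.7 ± 7.27) overlapped in WT, and Nrg4 stood 4.81 times above Tgfa in F2_outcross. The inhibitor-to-receptor ratio of Errfi1 to Egfr per kb was 4.41, 7.26, 3.06 and 5.20 in WT and 1.49, 1.75, 2.98 and 3.50 in F2_outcross. It was lower on average in F2_outcross (2.43 ± 0.96 against 4.98 ± 1.76), but WT replicate 3 and F2_outcross replicate 4 crossed.

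The other genes of the pathway were counted in 5 lists with 71 genes, of which 70 were in the table and 63 were tested. Limma called 2 of them higher in F2_outcross (Pik3r1 and Dusp6), 0 lower, and 61 did not pass, so that 3.17% were called against 2.66% of all genes tested. Their median log2 fold change was 0.07, against −0.01 over all genes. Limma voom on the reads also called 0 lower. Lists and their values follow by role.

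Besides Erbb4, the list of other ligands and receptors held Nrg1, Nrg2, Ereg and Epgn, and none passed the filter on low values. Nrg1, the first neuregulin, had 9.26 ± 2.72 normalized reads in WT and 7.46 ± 3.80 in F2_outcross, and Ereg (epiregulin) had 4.60 ± 2.41 and 5.74 ± 4.98. Nrg2 had at most 1 read in any library and Epgn (epigen) was at 0 in all 8. Of the neuregulins analysed here, Nrg4 alone passed that filter. Nrg3 was not analysed here.

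Of 8 genes for ligand shedding and trafficking, limma called 0 at an adjusted p under 0.05, 3 had an unadjusted p under 0.05, and voom called 0. Their median log2 fold change was 0.16. Over all 14390 genes tested, 3033 had an unadjusted p under 0.05. Rhbdf2, which carries the shedding protease Adam17 to the cell surface, had 407.3, 344.6, 375.9 and 390.1 normalized reads in WT and 802.4, 488.1, 588.8 and 435.7 in F2_outcross. All 4 F2_outcross libraries were above all WT libraries, as they were for Adam9. Such a separation, in either direction, was seen in 12.0% of all genes tested. Rhbdf2 had a log2 fold change of 0.57 ± 0.17 and an adjusted p of 0.0871 (limma, Benjamini-Hochberg), which misses the threshold. Adam9, a membrane metalloprotease, had 2130 ± 267 and 2666 ± 310 normalized reads (log2 fold change 0.33 ± 0.12, limma adjusted p = 0.154).

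Of 22 adaptors and signalling relays, 1 rose, 0 fell and 21 did not pass, with a median log2 fold change of 0.07. Pik3r1, the regulatory subunit of phosphoinositide 3-kinase, had 2261, 2117, 2225 and 2192 normalized reads in WT and 3543, 3179, 3662 and 3501 in F2_outcross. The groups were tight and far apart, with means of 2199 ± 61.2 and 3471 ± 206. Its log2 fold change was 0.66 ± 0.09 (limma adjusted p = 0.00333), and the call was made in 8 of 8 fits that left out a library.

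Of 19 negative regulators, 1 rose, 0 fell and 18 did not pass. Their log2 fold changes were above 0 in 15 of 19, with a median of 0.15, against −0.01 over all genes. The shedding genes leaned the same way, with 6 of 8 above 0, and nothing is read from these counts. Dusp6, a phosphatase that inactivates ERK and is induced by ERK signalling, had 1194, 842.7, 1230 and 1307 normalized reads in WT and 1730, 1890, 1648 and 2118 in F2_outcross. Every F2_outcross library was above every WT library, with means of 1143 ± 206 and 1846 ± 207. The groups separated, in either direction, in 12.0% of all genes tested. The log2 fold change of Dusp6 was 0.70 ± 0.14 (limma adjusted p = 0.0259). The call was lost without WT replicate 1 or 3 or F2_outcross replicate 1, 2 or 4, with adjusted p up to 0.0680. Dusp6 and Errfi1, both feedback inhibitors, thus lay on opposite sides of WT in all 4 F2_outcross libraries. Spry4 and Spred2, inhibitors of the Ras and ERK cascade, were named after their values were seen, because the fit without F2_outcross replicate 3 called them too. Spry4 had 460.2, 397.1, 806.0 and 540.6 normalized reads in WT and 1087, 984.8, 562.8 and 1293 in F2_outcross (log2 fold change 0.82 ± 0.25, limma adjusted p = 0.0983). For Spred2 the values were 230.5, 323.3, 299.7 and 322.2 in WT and 482.9, 459.3, 289.6 and 563.4 in F2_outcross (0.58 ± 0.19, limma adjusted p = 0.115). In both genes F2_outcross replicate 3 lay within the WT range and the other 3 F2_outcross libraries lay above it. The way these genes were picked favours that pattern, and each was called in 1 of 8 fits that left out a library.

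**Figure D5:**
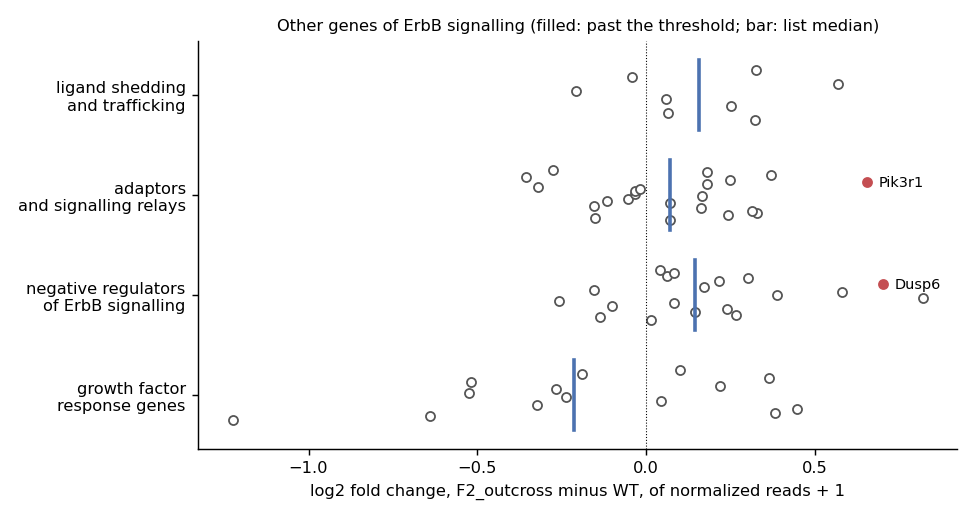
Log2 fold change (F2_outcross minus WT) of each tested gene in 4 lists of ErbB pathway genes; filled points passed the threshold, and the bar is the list median. Pik3r1 (0.66) and Dusp6 (0.70) are the filled points. The negative regulators and the shedding genes lie mostly above 0, and growth factor response genes lie on both sides.

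Of 14 tested growth factor response genes, limma called 0 at an adjusted p under 0.05, 2 had an unadjusted p under 0.05, and voom called 0. The median log2 fold change was −0.21, with 6 above 0 and 8 below. Over all 14390 genes tested, 3033 had an unadjusted p under 0.05. Jun, an AP-1 subunit, had 139.5 ± 19.3 and 191.4 ± 29.5 normalized reads (0.45 ± 0.16, limma adjusted p = 0.137), and Fosl2, another AP-1 subunit, had 150.6 ± 23.7 and 195.3 ± 19.2 (0.38 ± 0.15, limma adjusted p = 0.176). Neither passed the threshold.

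The genes whose pattern was most like that of Nrg4 were ranked by Pearson's r of log2(normalized reads + 1) over the 8 libraries, which share the group difference and the sequencing depth of each library. Gene models named Gm followed by digits, Rik names and -ps names were left out of this ranking and the next. Of the genes kept, the highest were Tsr1, Rdh13, Gtf2e1, Cipc and Crcp, with r from 0.992 for Tsr1 to 0.987 for Crcp. After removing group means the highest were Lman1 (0.992), Lactb2 (0.978), Rab20 (0.978), Ola1 (0.971) and Mmgt1 (0.955), so the 2 rankings named different genes. Among the other 8 members, r with Nrg4 over the 8 libraries was −0.84 for Errfi1, −0.71 for Tgfa, −0.54 for Hbegf, −0.20 for Erbb3, −0.03 for Btc, 0.10 for Egf, 0.30 for Erbb2 and 0.42 for Egfr. After removing group means it was 0.76 for Btc, 0.62 for Erbb2, 0.54 for Egfr, 0.20 for Tgfa, 0.03 for Hbegf, −0.01 for Egf, −0.09 for Erbb3 and −0.23 for Errfi1. These correlations are descriptions over 8 points and carry no p.

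Markers of other cells moved with the groups in part, and their part in the results above was not tested. The 8 Kupffer cell markers summed to 15347 to 32984 normalized reads in WT and 12479 to 17946 in F2_outcross, and all 8 had log2 fold changes below 0. Limma called 0 of them, with 8 at an unadjusted p under 0.05 and 0 by voom. That unadjusted threshold was met by 3033 of all 14390 genes tested. Lymphocyte markers (7 tested, all below 0, 1 lower) summed to 194.0 to 484.4 in WT and 90.1 to 166.7 in F2_outcross, and all 3 tested neutrophil markers were below 0, 1 of them lower. The lower genes were Nkg7, of cytotoxic lymphocytes (50.5 ± 11.2 and 23.3 ± 6.53 normalized reads, limma adjusted p = 0.0438), and S100a8, of neutrophils (98.0 ± 53.6 and 27.2 ± 6.44, limma adjusted p = 0.0313, not called by voom). Each of these calls was made in 2 of 8 fits that left out a library. Of 5 cholangiocyte markers 1 was higher, Spp1 (158.0 ± 44.5 and 331.6 ± 76.7 normalized reads, log2 fold change 1.08, limma adjusted p = 0.0247), called in 5 of 8 such fits, and the list summed to 629.6 to 832.6 in WT and 808.4 to 1005 in F2_outcross. Hepatocyte, endothelial, stellate, red blood cell and pancreas markers had 0 calls each by limma and by voom, with 4, 1, 0, 3 and 0 at an unadjusted p under 0.05. All 5 red blood cell markers had log2 fold changes below 0 (median −0.90; sums of 9841 to 24225 in WT and 6448 to 16989 in F2_outcross), as did all 6 pancreas markers (median −0.67; sums of 61.6 to 1344 and 48.7 to 959), against a median of −0.63 for the Kupffer cell markers.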

How the data were processed

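Per the labels' protocols, libraries from the livers of 4 WT and 4 F2_outcross females were made with a kit that keeps strand. Cutadapt, HISAT2, DESeq2 and GRCm38 are named in the submitters' processing notes, without versions or roles. What counted the reads, on which annotation and with which strand setting, is not given in the sources used here. The deposited table holds log2 values, and from the values the authors took log2 of a normalized read count plus 0.1. Subtracting 0.1 from 2 raised to the value gives normalized reads. Divided by the worth of 1 read in each library (0.779 to 1.04), 100% of these were whole to within 0.001 reads. Of 25069 lines, 395 had no symbol (0.611% to 1.22% of reads) and were left out. The plan allowed for linear or log values, and these were returned to the linear scale first.

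The 14390 genes that reached 10 normalized reads in 4 or more libraries were fitted as log2(value + 1) with limma 3.58.1 in R 4.3.3 (trend, two-sided, Benjamini-Hochberg over all tested genes, threshold 0.05), which understates the fold changes of low genes. The script was tested on simulated data. Positions and lengths are from GENCODE M21 on GRCm38. Group differences of the members are descriptions. The members and gene lists were chosen with earlier results of these data known. Genes named were all members, and each list's genes past the threshold or else its 2 with the smallest p. Also named were tested genes within 500 kb of Nrg4 and the 5 most like Nrg4 by each measure. The likeness rankings left out Gm, Rik and -ps names. Alternatives were pseudocounts of 0.5 and 5, no filter, a mean of at least 50, TMM and upper quartile scaling, limma voom on recovered reads, the longest transcript as length, and leaving out each library. Errors with levels are SDs and errors with log2 fold changes are moderated SEs. Read floors cover counting error only.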

Additional observations from a re-analysis of the deposited data

Results flagged for a closer look

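A test of the gap between the most extreme of 4 libraries and its neighbour, as a share of the group's whole range (Dixon's critical value for 4 values), was applied to 30 combinations of gene and group, and 3 passed; chance flags about 1 in 20. Nrg4 in F2_outcross had its highest value in replicate 2 (1083 normalized reads, against 750.5 to 774.3 in the other 3), a gap share of 0.928; without it the log2 fold change was 1.70. Erbb2 in WT was highest in replicate 4 (55.4 against 40.4 to 42.8), a gap share of 0.840. Jun in F2_outcross was lowest in replicate 2 (147.7 against 201.8 to 211.6), a gap share of 0.846.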

How the results depend on the processing

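Over the 7 alternatives in pseudocount, filter, scaling and test, the count of genes past the threshold ran from 302 with no filter to 387 with TMM scaling, against 383, and the same 2 pathway genes (Pik3r1 and Dusp6) were called in each. Calls of the members are not read as support under any setting. Leaving out 1 library moved the count of genes to between 111 and 1073. Dropping WT replicate 1, 3 or 4 gave 131, 120 and 131 genes, dropping F2_outcross replicate 1 or 2 gave 142 and 111, and dropping WT replicate 2 gave 1073. The count of pathway genes, 2, moved to between 1 and 4; it was 1 without WT replicate 1 or 3 or F2_outcross replicate 1, 2 or 4, where Dusp6 was lost, and 4 without F2_outcross replicate 3. With the longest transcript as length, the ratio of Nrg4 to Tgfa in F2_outcross was 4.81 in place of 2.38, because the length of Nrg4 changed most. No called result changed direction. No paired analysis was possible because the labels give no replicate numbers shared between the groups. The cause of the shifts on dropping a library was not tested. At 14 to 47 reads per library, Egf and Btc have wide errors.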
